A study of Mus musculus with 12 samples.

Results

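The genes of 3 conjugating enzyme families were examined in mouse liver: the UDP-glucuronosyltransferases (UGT), the cytosolic sulfotransferases (SULT) and the glutathione S-transferases (GST). They were picked by symbol, without pseudogenes: Ugt1 to Ugt3, numbered Sult, and Gst followed by a, k, m, o, p, z, t or c. The letter c stands for no GST class and matched only Gstcd. In all, 52 of the 22618 genes in the count table were picked. The 44 with a mean of at least 1 CPM (a count relative to the size of its library) over all libraries were used: 19 Ugt, 5 Sult and 20 Gst genes. All 44 also passed the filter on low counts, which left 17142 genes to test. The other 8 were Gsto2, Sult1e1, Sult2a1, Sult2a2, Sult2a7, Sult2b1, Sult4a1 and Ugt2a1, and none of these had more than 33 counts in a library.

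Livers came from male mice that lacked both cryptochromes (Cry1/2 double knockout, DKO) on the C57BL/6j strain, aged 12 to 16 weeks, with a conventional gut flora and fed at night. Total RNA was sequenced every 4 h over 1 diurnal cycle, with 2 libraries at each zeitgeber time (ZT), given below as replicate 1 and then replicate 2: ZT14, ZT18 and ZT22, taken here as night, and ZT02, ZT06 and ZT10, taken as day. Lights go off at ZT12 under the usual convention. All 12 libraries carry the same genotype and no wild-type library was analysed here, so each comparison is between times of day within DKO liver.

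UGT enzymes sit in the endoplasmic reticulum and attach glucuronic acid, taken from UDP-glucuronic acid, to bilirubin, steroids, bile acids and drugs. SULT enzymes move a sulfate group from PAPS to phenols, catecholamines and steroids in the cytosol, and GST enzymes couple glutathione to electrophiles. The products are more soluble and leave the hepatocyte through export pumps. In wild-type liver several nuclear receptors and the clock-driven PAR bZIP factors (DBP, TEF and HLF), which bind D-box sequences, are known to control parts of this system.

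Library totals ran from 34715506 to 46074052 counts, so that a count of 0 in a library allows up to 0.0651 to 0.0864 CPM (3 counts of the total, counting error only). Albumin and the other 6 hepatocyte markers summed to 87512 to 97556 CPM at night and 94109 to 123086 CPM by day, so the defining markers of the labelled tissue were present throughout. Cry1 was counted at 5.71 to 13.6 CPM and Cry2 at 12.4 to 22.8 CPM. These counts cover whole genes and do not check the deletions. Some libraries stood apart, by correlations over 9876 genes of log2 CPM centred and divided by its SD per gene. ZT02 replicate 1 correlated better with ZT06 replicate 1 (0.485) than with ZT02 replicate 2 (0.152). ZT02 replicate 2 likewise went with ZT06 replicate 2 (0.494), while the 2 ZT06 libraries correlated at 0.07. Results below are therefore also given without pairs of these libraries where a call changed. Erythroid markers (5 of 7 in the table, summed to 91.5 to 163 CPM at night and 73.3 to 168 CPM by day) were highest in ZT02 replicate 1, 1.48 above their mean on the log2 scale. Pancreatic acinar markers (7 of 8 in the table, 9.68 to 33.6 CPM at night and 6.35 to 17.4 CPM by day) were highest in ZT14 replicate 2, at 3.96 above their mean. Their part in the results was not tested. In bulk liver, fewer cells of a type and less RNA per cell cannot be told apart.

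Few conjugating enzyme genes differed by time of day in these tests. With edgeR's quasi-likelihood test, 4 of the 44 genes passed the 24 h rhythm test at an adjusted p under 0.05 (9.09%, against 12% of all genes tested): Ugt2b38, Ugt3a1, Sult1d1 and Gstp2. These 4 also passed the comparison of night with day, where 9.7% of all genes were called. Ugt2b38 and Gstp2 were higher at night, 2 of 44, against 4.8% of all genes. Ugt3a1 and Sult1d1 were lower at night, also 2 of 44, against 4.89% of all genes. Ugt2b38 and Sult1d1 also passed the test for any difference between the 6 times, which 4.82% of all genes did. The share of called members was thus near or under that of all genes in each edgeR test. With DESeq2, and with each Ugt1 row counted singly, it lay above that of all genes in each test, by counts given in the last section. Rows of the Ugt1 locus made up most of the calls that DESeq2 added in the first 2 tests. Outside that locus the DESeq2 share lay above that of all genes for night minus day and any difference, but not in the 24 h test. The median fitted range (peak over trough of the 24 h curve) was 1.29-fold over the 44 genes and 1.31-fold over all genes.

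Levels of the 44 genes leaned towards day, by small amounts. The log2 difference of night minus day was negative for 34 of the 44 genes, against 8357 of all 17142 genes. Its median was -0.16, against 0.01 over all genes. The 9 rows of the Ugt1 locus appear to count mostly the same reads, and without them 25 of 35 genes had a negative value, with a median of -0.11. A single day library, ZT06 replicate 1, was highest for 28 of the 44 genes (63.6%, against 7.86% of all genes). Without replicate 1 of ZT02 and of ZT06, the sums of Gsta, Gstk, Gstm, Gstt and Gstz were higher at night. The Sult sum stayed lower, and these ratios are given in the last section. At an unadjusted p under 0.05, 19 of the 44 genes passed the night and day comparison (43.2%, against 26.6% of all genes), 16 passed the 24 h test (36.4%, against 31.5%) and 14 the test for any difference (31.8%, against 24.8%). Without the Ugt1 rows, 10 of 35 genes passed the night and day comparison (28.6%), 7 the 24 h test (20%) and 13 the test for any difference (37.1%). The night and day libraries did not overlap for Sult1d1 alone, 1 of 44, against 3.7% of all genes. For the 40 genes not called, the upper 95% limit of the fitted range lay between 1.39-fold and 5.64-fold, so the width of what could have been missed differed much between genes.

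**Figure D1:**
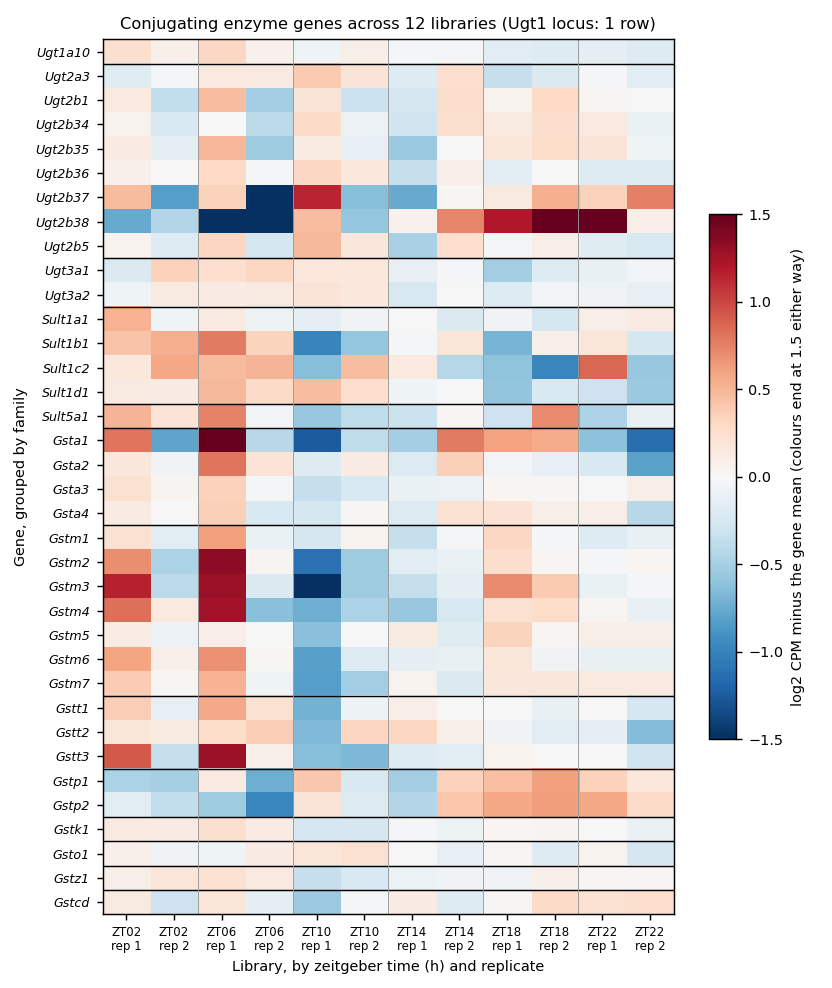
Colour shows log2 CPM minus the gene's mean over the 12 libraries (columns, by zeitgeber time and replicate) for 35 genes and 1 row for the Ugt1 locus, grouped by family. Ugt2b38 is darkest red in the ZT18 libraries and ZT22 replicate 1. Gsta1, Gstm2, Gstm3, Gstm4 and Gstt3 have their darkest red in ZT06 replicate 1 and are in most cases red in ZT02 replicate 1.

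Abundance differed widely between the genes. Per kilobase of exon, Gstm1 (703 CPM per kb) and Gstp1 (702 CPM per kb) had the highest levels outside the Ugt1 locus, and Ugt2b5 (541 CPM per kb), Gsta3 (470 CPM per kb) and Ugt2b36 (326 CPM per kb) came next. The leading genes were thus a mu, a pi and an alpha class GST and 2 UGT2B genes. Gstm1 and Gstp1 overlapped over libraries, and so did Ugt2b5 and Gsta3. Sult1a1, a phenol sulfotransferase, was the most abundant sulfotransferase gene at 184 CPM per kb. Ugt2b37 (0.54 CPM per kb) and Gstcd (0.74 CPM per kb) were the lowest.

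**Figure D2:**
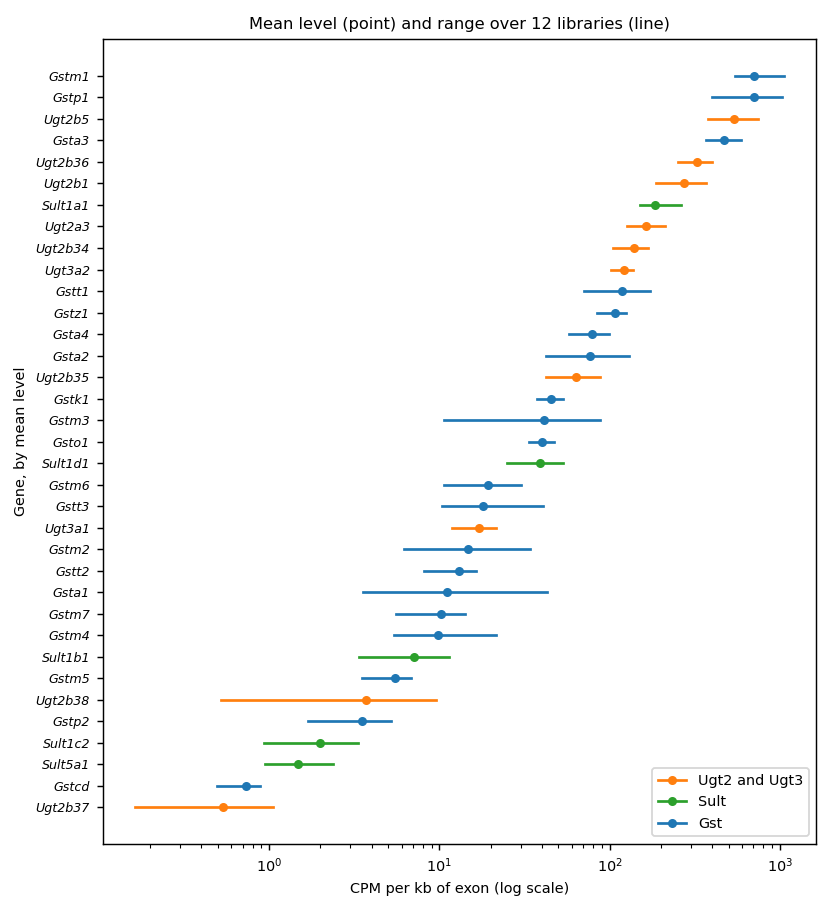
Mean level (point) and lowest to highest library (line) in CPM per kb of exon, on a log axis, for the 35 genes outside the Ugt1 locus. Gstm1 and Gstp1 lead, and Ugt2b38, Gsta1 and Gstm3 have the longest lines among genes above 1 CPM per kb.

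The Ugt1 locus (chromosome 1, 88055388 to 88220002, mm10, plus strand) encodes the UGT1A enzymes, whose transcripts each have their own first exon and share the last exons. UGT1A1 is the bilirubin-conjugating enzyme. The table lists 9 rows for it, and 50.4% to 70.9% of the 100-base windows of each row's exons also occur in another gene. Counts were lower step by step along the locus. In ZT02 replicate 1 they were 73861 for Ugt1a10, 73644 for Ugt1a9, 62182 for Ugt1a8, 62104 for Ugt1a6a, 59092 for Ugt1a5, 57171 for Ugt1a2 and 57072 for Ugt1a1. A row that starts further upstream thus had a count above, or nearly equal to, that of the rows downstream of it. Such a row appears to hold most of their reads, but how reads were assigned is not given. Ugt1a10 had 1.20 to 1.31 times the count of Ugt1a1 over the 12 libraries. The 9 rows are therefore not 9 measurements, and counting them as 1 locus leaves 36 features.

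Taken as 1 locus by its first row, Ugt1a10, the level was 1330 ± 76.8 CPM at night and 1570 ± 146 CPM by day (SD, n = 6 each). Night libraries ran from 1260 to 1427 CPM with a median of 1302 CPM, and day libraries from 1381 to 1786 CPM with a median of 1527 CPM. Night and day overlapped only through ZT10 replicate 1, the lowest day library at 1381 CPM, which lay under both ZT14 libraries. The log2 difference was -0.24 ± 0.08 (SE), with an edgeR adjusted p of 0.0714, and the fitted range was 1.28-fold (95% interval 1.12 to 1.46) with a peak at ZT 6.03 and an adjusted p of 0.0824. None of the 9 rows was called by edgeR in any of the 3 tests, with adjusted p-values of 0.0736 to 0.0928 in the 24 h test, although 9 of 9 had an unadjusted p under 0.05 in the 24 h test and in the night and day comparison, and 1 of 9 did for any difference. DESeq2 called all 9 in the first 2 tests and Ugt1a2 and Ugt1a5 in the third. Without ZT10 replicate 1, edgeR also called all 9 in the 24 h test, and 3 of them (Ugt1a1, Ugt1a2 and Ugt1a5) in the night and day comparison.

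Differences between neighbouring rows would be reads outside the shared exons if each row holds the reads of the next row, which could not be checked. Ugt1a9 exceeded Ugt1a8 by 157 ± 9.2 CPM at night and 204 ± 39.9 CPM by day (SD, n = 6 each), a mean of 12.6% of the Ugt1a9 count. Ugt1a6a exceeded Ugt1a5 by 84.9 ± 11.1 CPM at night and 81.7 ± 12.1 CPM by day. The Ugt1a9 step was thus lower on average at night, where its libraries ran from 146 to 170 CPM, against 160 to 263 CPM by day, with 4 of the 6 day libraries above every night library. The Ugt1a6a step differed by less than its spread. Ugt1a5 exceeded Ugt1a2 by 12.4 to 26.9 CPM at night. By day this step was 44.1 and 10.8 CPM at ZT02, 76.9 and 28.4 CPM at ZT06, and 6.64 and 23.6 CPM at ZT10. It was thus highest in the same 2 libraries that stood high for several GST genes. The steps are differences of counts and were not tested. The steps from Ugt1a7c to Ugt1a8 and from Ugt1a6a to Ugt1a6b were slightly negative, so the rows do not nest exactly.

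**Figure D3:**
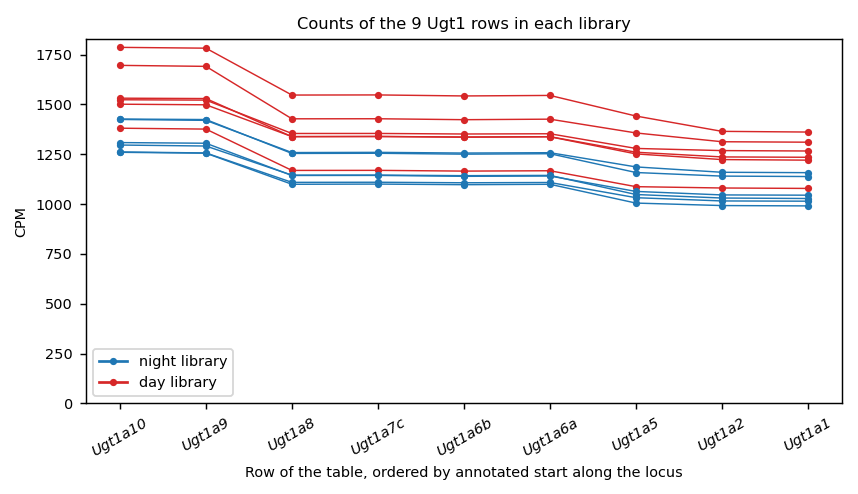
CPM of the 9 Ugt1 rows, ordered by annotated start, with 1 line per library (night blue, day red). The lines run nearly parallel, drop at Ugt1a8 and Ugt1a5, and day lines lie above night lines except for ZT10 replicate 1.

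The Ugt2 genes (8 on chromosome 5, 86889767 to 87424203) act on steroids, bile acids and drugs. Ugt2b38 was the 1 gene of the 8 that was called. It had 3.01 and 3.73 CPM at ZT02, 1.37 and 0.98 CPM at ZT06, 6.97 and 3.38 CPM at ZT10, 5.31 and 8.38 CPM at ZT14, 11.7 and 15.6 CPM at ZT18, and 18.1 and 5.402 CPM at ZT22. The lowest values lay in both ZT06 libraries and the highest at ZT18 and in 1 of the ZT22 libraries, and night and day overlapped because ZT10 replicate 1 exceeded 2 night libraries. It averaged 10.7 ± 5.32 CPM at night and 3.24 ± 2.13 CPM by day (SD, n = 6 each), which is 1.91 ± 0.30 on the log2 scale (SE, adjusted p = 0.00562). The fitted range was 7.33-fold (95% interval 3.21 to 19.6) with a peak at ZT 18.1 ± 0.74 (SE, adjusted p = 0.0122), the largest range of the 44 genes.

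Ugt2b38 is a low copy beside an abundant one. Its exons share 24.2% of their 100-base windows with Ugt2b5, whose count was far larger: Ugt2b38 had 0.11% to 2.08% of the Ugt2b5 count. Ugt2b5 itself averaged 936 ± 167 CPM at night and 1073 ± 216 CPM by day and was not called (log2 difference -0.19 ± 0.14, adjusted p = 0.421). The night and day call of Ugt2b38 held in all 21 alternatives, with an adjusted p of at most 0.0317. Its 24 h call was lost without ZT02 replicate 2 and ZT06 replicate 1 and without ZT02 replicate 1 and ZT06 replicate 2 (adjusted p up to 0.0677), and its call for any difference was lost in 9 alternatives (up to 0.123): limma-voom, each of the 3 pairs of ZT02 and ZT06 libraries, or without ZT06 replicate 1, ZT06 replicate 2, ZT14 replicate 1, ZT18 replicate 1 or ZT18 replicate 2.

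Of 10 male-biased liver genes, 3 were also higher at night (Hsd3b5, Nudt7 and Serpina12), against 4.8% of all genes, and as a list they stood at -0.10 to 0.71 around their mean (log2) at night and -0.58 to 0.05 by day. Their sum ran from 4582 to 8141 CPM at night and 3353 to 7071 CPM by day. Of 12 female-biased genes 10 were tested, and 3 of these were lower at night (Cyp2b9, Abcd2 and Acot3), against 4.89% of all genes. All livers are labelled male, and the part of this in the Ugt2b38 result was not tested.

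RefSeq lists the Ugt2b38 start on the minus strand of chromosome 5, and the window from 250 bases before to 50 bases after it (87424154 to 87424453, GRCm38.p6) is shown since the gene had the widest range. It held none of the 7 motifs searched.
Ugt2b38: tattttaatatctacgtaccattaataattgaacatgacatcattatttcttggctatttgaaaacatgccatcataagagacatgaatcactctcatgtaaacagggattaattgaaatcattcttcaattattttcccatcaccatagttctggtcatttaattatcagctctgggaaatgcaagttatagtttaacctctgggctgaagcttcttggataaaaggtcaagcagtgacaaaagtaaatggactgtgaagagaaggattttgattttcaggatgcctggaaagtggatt

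None of the other 7 Ugt2 genes was called by edgeR; at an unadjusted p under 0.05, and with Ugt2b38 included, 3 of the 8 passed the 24 h test (37.5%), 3 night minus day (37.5%) and 2 the test for any difference (25%). Ugt2b36 averaged 608 ± 69.1 CPM at night and 734 ± 73.7 CPM by day, with a log2 difference of -0.27 ± 0.09 and an adjusted p of 0.0966. Ugt2a3 had 319 ± 48.7 CPM at night and 373 ± 49.9 CPM by day, and its adjusted p in the 24 h test was 0.0562, the smallest of the genes not called. Ugt2b1, Ugt2b34, Ugt2b35 and Ugt2b5 had fitted ranges of at most 1.30-fold. Ugt2b36 was called lower at night by DESeq2 and without ZT14 replicate 2 (lowest adjusted p 0.0306). Summed over all rows of the family, Ugt2 levels were 3443 ± 468 CPM at night and 3652 ± 598 CPM by day, a ratio of 0.943. That difference was smaller than the spread between libraries.

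The 2 Ugt3 genes lie side by side on chromosome 15 (9276888 to 9370955). Human UGT3A1 uses UDP-N-acetylglucosamine, and human UGT3A2 uses UDP-glucose and UDP-xylose, in place of UDP-glucuronic acid. Ugt3a1 had 38.9 and 57.6 CPM at ZT02, 53.9 and 56.2 CPM at ZT06, 50.7 and 50.5 CPM at ZT10, 41.5 and 44.9 CPM at ZT14, 31.6 and 39.4 CPM at ZT18, and 42.0 and 44.1 CPM at ZT22. It was lowest at ZT18, and night and day overlapped only through ZT02 replicate 1. It averaged 40.6 ± 4.83 CPM at night and 51.3 ± 6.72 CPM by day (SD, n = 6 each), a log2 difference of -0.34 ± 0.10 (SE, adjusted p = 0.0491). The fitted range was 1.47-fold (95% interval 1.18 to 1.83) with a peak at ZT 6.29 ± 0.96 (adjusted p = 0.0349). The night and day call, just inside the threshold, was lost in 14 of 21 alternatives (adjusted p up to 0.146): with total counts only, with limma-voom, without any single library other than ZT02 replicate 1, and when ZT02 replicate 2 and ZT06 replicate 1 were both left out. The 24 h call was lost in 9 (up to 0.1002): without that pair or without ZT06 replicate 1, ZT06 replicate 2, ZT10 replicate 2, ZT14 replicate 1, ZT14 replicate 2, ZT18 replicate 1, ZT18 replicate 2 or ZT22 replicate 1.

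Its neighbour Ugt3a2 was more abundant per kilobase (121 CPM per kb, and 17.2 CPM per kb for Ugt3a1) and leaned the same way. It had 347 ± 22.8 CPM at night and 405 ± 24.4 CPM by day, a log2 difference of -0.22 ± 0.07 with an adjusted p of 0.0752. DESeq2 called it lower at night, as did edgeR without ZT14 replicate 2 (lowest adjusted p 0.0356). The sum of both genes was 387 ± 25.6 CPM at night and 456 ± 29.98 CPM by day, a ratio of 0.849.

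Among the sulfotransferases, Sult1d1 was lower at night, while the other 4 genes were not called. Sult1d1 (chromosome 5, 87554645 to 87569027, minus strand) sulfates catecholamines such as dopamine in rodents. It had 102 and 101 CPM at ZT02, 131 and 113 CPM at ZT06, 128 and 110 CPM at ZT10, 88.6 and 93.4 CPM at ZT14, 61.6 and 79.1 CPM at ZT18, and 75.2 and 63.1 CPM at ZT22. Every night library lay below every day library, with a gap between ZT14 replicate 2 and ZT02 replicate 2. It averaged 76.8 ± 13.0 CPM at night and 114 ± 12.7 CPM by day (SD, n = 6 each), a log2 difference of -0.58 ± 0.08 (SE, adjusted p = 0.0039). The fitted range was 1.89-fold (95% interval 1.59 to 2.26) with a peak at ZT 7.54 ± 0.46 (adjusted p = 0.00247). None of its exon windows occur in another gene. Both calls held in all 21 alternatives (adjusted p up to 0.0199 for night minus day and 0.0153 for the 24 h test). The call for any difference (adjusted p = 0.0224) was lost without ZT18 replicate 1, without ZT22 replicate 2, or without ZT06 replicate 1 together with either ZT02 library (up to 0.0639).

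The Sult1d1 promoter window (87568957 to 87569256, GRCm38.p6, minus strand) is shown because the gene gave the firmest call. The capitals mark a match to the HNF1 half-site, which starts at position -79.
Sult1d1: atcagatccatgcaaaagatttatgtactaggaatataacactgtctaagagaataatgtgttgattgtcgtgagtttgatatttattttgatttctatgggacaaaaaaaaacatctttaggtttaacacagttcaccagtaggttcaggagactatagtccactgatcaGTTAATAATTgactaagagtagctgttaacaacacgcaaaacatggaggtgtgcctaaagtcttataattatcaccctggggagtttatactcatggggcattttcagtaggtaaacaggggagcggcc

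Sult1a1 averaged 266 ± 28.5 CPM at night and 288 ± 54.9 CPM by day and was not called (adjusted p = 0.521). Sult1b1, which sulfates thyroid hormones, lies next to Sult1d1 on chromosome 5 and had 17.9 ± 3.79 CPM at night and 21.6 ± 8.79 CPM by day. Its libraries ran from 9.35 CPM in ZT10 replicate 1 to 31.9 CPM in ZT06 replicate 1. Sult1c2 had 3.11 ± 1.63 CPM at night and 4.20 ± 1.08 CPM by day, and Sult5a1 6.14 ± 2.07 and 6.92 ± 2.41 CPM. All 5 genes had a negative log2 difference. The 4 Sult2 rows picked by symbol, from a family of bile acid and steroid sulfotransferases, and the estrogen sulfotransferase Sult1e1 were nearly silent. Any Sult2 gene listed under another name was not examined. Sult2a7 reached 12 to 33 counts in a library, and Sult2a1, Sult2a2, Sult2b1 and Sult1e1 had at most 3 counts, the level that a count of 0 allows.

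**Figure D4:**
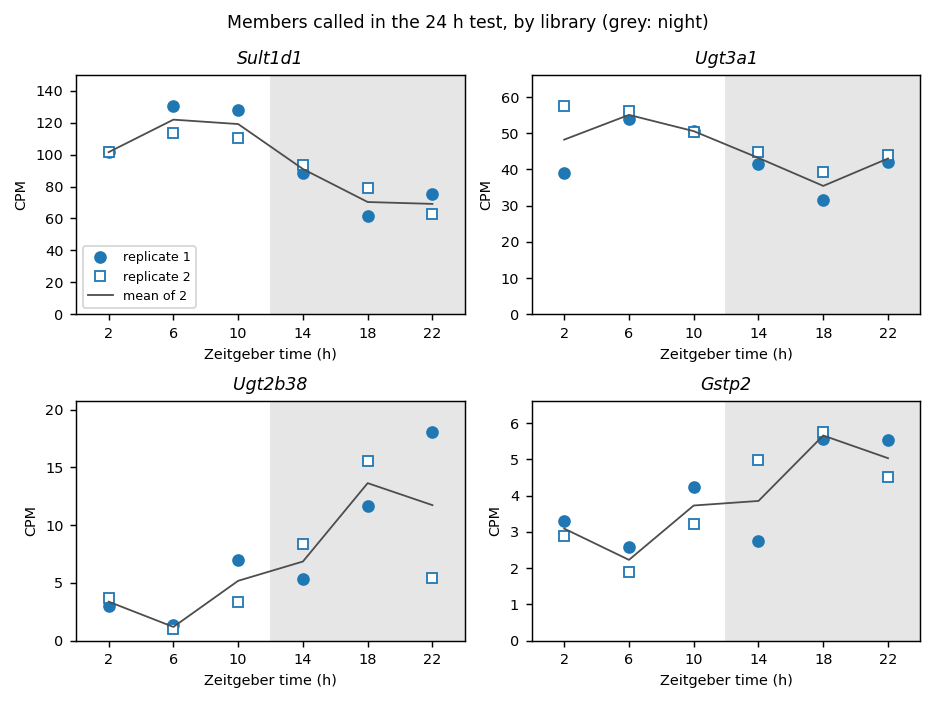
CPM in each library against zeitgeber time for the 4 genes called in the 24 h test (filled circle, replicate 1; open square, replicate 2; line, mean of 2; grey, night). Sult1d1 and Ugt3a1 are lower at night and Ugt2b38 and Gstp2 higher, and the 2 ZT22 libraries of Ugt2b38 lie far apart.

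Among the 20 Gst genes, Gstp2 was the 1 called, 1 of the 2 genes of the pi class. Gstp1 and Gstp2 lie next to each other on chromosome 19 (4035407 to 4046023), and the pi enzyme is abundant in the liver of male mice. Gstp2 had 3.31 and 2.87 CPM at ZT02, 2.57 and 1.88 CPM at ZT06, 4.24 and 3.22 CPM at ZT10, 2.74 and 4.97 CPM at ZT14, 5.57 and 5.75 CPM at ZT18, and 5.55 and 4.52 CPM at ZT22. Only ZT14 replicate 1 among the night libraries lay within the day range. It averaged 4.85 ± 1.13 CPM at night and 3.01 ± 0.79 CPM by day (SD, n = 6 each), a log2 difference of 0.70 ± 0.16 (SE, adjusted p = 0.0244). The fitted range was 2.19-fold (95% interval 1.43 to 3.36) with a peak at ZT 18.2 ± 0.92 (adjusted p = 0.0269). The night and day call was lost in 8 of 21 alternatives (adjusted p up to 0.0751): without ZT02 replicate 2, ZT06 replicate 2, ZT10 replicate 2, ZT18 replicate 1, ZT18 replicate 2 or ZT22 replicate 1, and without ZT02 and ZT06 libraries of unlike number together. The 24 h call was lost in 6 (up to 0.114): without ZT06 replicate 2, ZT18 replicate 1 or ZT18 replicate 2, and without each of the 3 pairs of ZT02 and ZT06 libraries.

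Gstp1 leaned the same way at a far higher level. It had 746 and 732 CPM at ZT02, 1144 and 623 CPM at ZT06, 1373 and 886 CPM at ZT10, 727 and 1316 CPM at ZT14, 1421 and 1592 CPM at ZT18, and 1318 and 1156 CPM at ZT22. ZT14 replicate 1 was low and ZT10 replicate 1 and ZT06 replicate 1 high for their groups, so night and day overlapped. It averaged 1255 ± 296 CPM at night and 918 ± 287 CPM by day, a log2 difference of 0.46 ± 0.18 that was not called (adjusted p = 0.141), except without ZT06 replicate 1 (adjusted p = 0.0488). Gstp2 shares 46.9% of its exon windows with other genes, 41.6% with Gstp1, and had 0.22% to 0.44% of the Gstp1 count, so the Gstp2 count is uncertain. The male-biased genes described above were measured in the same libraries, and their part in the Gstp2 result was not tested.

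The promoter windows of the pi genes are shown together because the genes are near copies (Gstp2, 4042172 to 4042471, and Gstp1, 4037863 to 4038162, chromosome 19, minus strand, GRCm38.p6). They share a longest run of 43 identical bases, and the capitals mark the AP-1 site TGAGTCA, at -89 in Gstp2 and -74 in Gstp1.
Gstp2: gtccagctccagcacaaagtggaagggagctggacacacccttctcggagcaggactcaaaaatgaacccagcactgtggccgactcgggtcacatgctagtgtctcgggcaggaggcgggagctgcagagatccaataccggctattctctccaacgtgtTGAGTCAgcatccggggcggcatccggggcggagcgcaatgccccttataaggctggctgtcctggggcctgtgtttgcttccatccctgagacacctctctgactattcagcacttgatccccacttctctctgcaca
Gstp1: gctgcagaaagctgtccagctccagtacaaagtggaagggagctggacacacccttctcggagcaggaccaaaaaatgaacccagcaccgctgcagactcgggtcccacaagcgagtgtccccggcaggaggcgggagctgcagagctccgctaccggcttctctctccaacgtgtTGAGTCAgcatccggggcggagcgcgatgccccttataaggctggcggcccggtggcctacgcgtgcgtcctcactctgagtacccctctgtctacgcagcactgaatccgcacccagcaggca

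None of the 18 other GST genes was called by edgeR; at an unadjusted p under 0.05, 0 of the 18 passed the 24 h test (against 31.5% of all genes), 2 passed night minus day (11.1%, against 26.6%) and 7 passed for any difference (38.9%, against 24.8%). DESeq2 called 5 of them for any difference: Gsta2, Gstk1, Gstm6, Gstm7 and Gstz1. In the alpha class, which handles lipid peroxides and, in mice, aflatoxin epoxide, Gsta3 averaged 2021 ± 104 CPM at night and 2060.3 ± 375 CPM by day (log2 difference -0.01 ± 0.08). Gsta4, which conjugates 4-hydroxynonenal, had 99.7 ± 16.9 CPM at night and 99.4 ± 16.0 CPM by day. Its fitted range of 1.02-fold (upper 95% limit 1.42) was the smallest of the 44 genes. Gstm1, the main mu class gene, had 984 ± 156 CPM at night and 1088 ± 259 CPM by day, and Gstt1 of the theta class 173 ± 13.8 and 190 ± 54.9 CPM. Gstz1, the maleylacetoacetate isomerase of tyrosine breakdown, averaged 537 ± 23.7 CPM at night and 552 ± 86.3 CPM by day. Gsto1 had 76.8 ± 6.36 and 86.3 ± 7.26 CPM, Gstk1 65.2 ± 2.59 and 67.5 ± 9.54 CPM, and Gstcd 4.29 ± 0.51 and 3.66 ± 0.67 CPM. In these genes the day libraries spread more widely than the night libraries, Gsta4 aside.

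The spread by day followed a few libraries. ZT06 replicate 1 was the highest library for 14 of the 20 GST genes (70%, against 7.86% of all genes), and ZT10 replicate 1 the lowest for 13 of 20 (65%, against 13.5% of all genes). In the mu class (7 genes on chromosome 3, 107895821 to 108044894), these shares were 6 of 7 each. Over all 44 genes ZT06 replicate 1 was highest for 28 (63.6%), and outside the Ugt1 locus for 19 of 35 (54.3%). At ZT06, 5 of 20 GST genes differed over 2-fold between the 2 libraries (25%, against 6.71% of all genes), and at ZT02, 4 of 20 did (20%, against 6.44%).

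Of the 20 GST genes, those over 2-fold apart at ZT06 were Gsta1, Gstm2, Gstm3, Gstm4 and Gstt3; Gsta1, Gstm2 and Gstm4 are named here after their values were seen. Gsta1 had 14.1 and 4.67 CPM at ZT02, 40.9 and 6.04 CPM at ZT06, 3.41 and 6.21 CPM at ZT10, 5.66 and 13.8 CPM at ZT14, 12.3 and 11.9 CPM at ZT18, and 5.29 and 3.69 CPM at ZT22. ZT06 replicate 1 thus stood 6.77 times above its partner. Gsta1 shares 80.6% of its exon windows with other genes, mostly Gm3776, so its count is uncertain. Gstm3 had 105 and 35.5 CPM at ZT02, 115 and 40.5 CPM at ZT06, 13.9 and 32.5 CPM at ZT10, 36.8 and 42.4 CPM at ZT14, 77.1 and 61.8 CPM at ZT18, and 43.8 and 46.5 CPM at ZT22. Gstt3 ran from 51.5 to 65.9 CPM at night, and by day had 120.5 and 49.6 CPM at ZT02, 156 and 66.9 CPM at ZT06, and 40.7 and 39.7 CPM at ZT10. In both genes replicate 1 of ZT02 and of ZT06 lay above all other libraries. Gstm4 differed 3.72-fold and Gstm2 2.46-fold between the ZT06 libraries.

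Calls for any difference in this group depended on those libraries. Without ZT02 replicate 2 and ZT06 replicate 1, Gstm2, Gstm4, Gstm7 and Gstt3 were called. Without ZT02 replicate 1 and ZT06 replicate 2, Gsta1, Gstm2, Gstm3, Gstm4, Gstm7 and Gstt3 were called beside Sult1d1, and without ZT02 replicate 1 and ZT06 replicate 1 only Gstm4 was. The sum of the mu class was 1133 ± 178 CPM at night and 1254 ± 343 CPM by day, a ratio of 0.904, which became 1.07 without replicate 1 of ZT02 and ZT06. The sum of all GST rows was 5568 ± 507 CPM at night and 5484 ± 924 CPM by day. These differences were smaller than the spread between libraries. Erythroid markers stood 1.48 above their mean (log2) in ZT02 replicate 1 and -0.44 from it in ZT06 replicate 1, and female-biased genes at 1.27 and 0.34. Their part in the GST pattern was not tested.

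**Figure D5:**
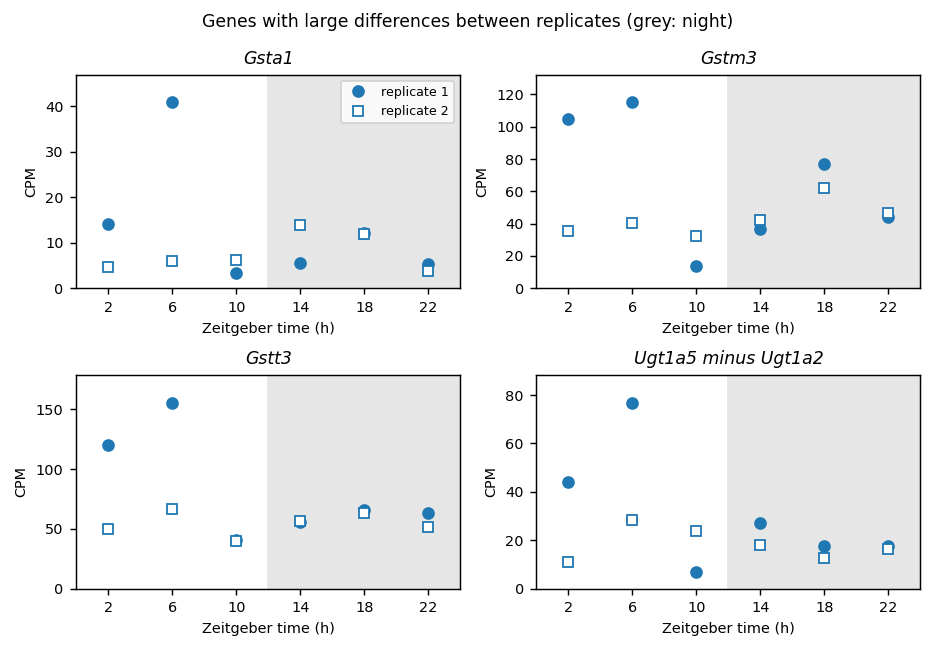
CPM in each library for Gsta1, Gstm3, Gstt3 and the step from Ugt1a2 to Ugt1a5 (filled circle, replicate 1; open square, replicate 2; grey, night). In all 4 panels replicate 1 of ZT02 and of ZT06 lies above replicate 2, and ZT06 replicate 1 is the highest library.

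Genes that supply the conjugation reactions were described by lists, whose counts stand against 12% of all genes called in the 24 h test, 4.8% called higher at night and 4.89% called lower. Of 8 tested genes of PAPS supply and sulfate handling, 3 passed the 24 h test: Papss1, Slc26a1 and Slc35b2. At an unadjusted p under 0.05, 6 of the 8 did (75%, against 31.5% of all genes). Papss1, which makes PAPS, was higher at night (22.1 ± 2.58 CPM at night and 14.7 ± 2.79 CPM by day, adjusted p = 0.0185) with a peak at ZT 18.9. Papss2, which also makes PAPS and is named after its values were seen, was far more abundant and leaned the other way. It had 213 ± 22.4 CPM at night and 306 ± 102 CPM by day and was not called (edgeR adjusted p = 0.067 for night minus day). The PAPS transporter gene Slc35b3, named after its values were seen, was lower at night (9.11 ± 1.21 and 11.5 ± 1.04 CPM, adjusted p = 0.0269). Of 14 genes of glutathione supply, 2 passed the 24 h test, near the share of all genes. These were Chac1, which degrades glutathione (1.12 ± 0.92 CPM at night and 2.45 ± 2.44 CPM by day), and the dipeptidase gene Cndp2 (40.9 ± 3.16 and 37.5 ± 6.29 CPM). At an unadjusted p under 0.05, 3 of the 14 passed (21.4%). Gclc, the rate-limiting subunit of glutathione synthesis, was lower at night at 317 ± 50.2 CPM, against 383 ± 18.9 CPM by day (adjusted p = 0.0291). Of 6 genes that make or carry UDP-glucuronic acid, 1 had an unadjusted p under 0.05 in the 24 h test, Ugp2 (330 ± 60.3 CPM at night and 372 ± 54.3 CPM by day), and its adjusted p was 0.0602.

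Other enzymes and transporters gave few calls, read against the same shares of all genes. More passed the 24 h test at an unadjusted p under 0.05, as 31.5% of all genes did. These were 10 of 15 transporters (66.7%), 4 of 8 other glutathione transferases and GST-fold proteins (50%), 5 of 12 other conjugating enzymes (41.7%) and 2 of 9 deconjugating enzymes (22.2%). Hpgds, the sigma class GST that makes prostaglandin D2, was lower at night (0.88 ± 0.16 CPM at night and 1.53 ± 0.49 CPM by day), and Eef1g, a translation factor with a GST-like domain, was higher (140 ± 4.24 and 117 ± 9.48 CPM). These were 2 of 8 genes tested in their list. Nat2, an arylamine acetyltransferase, passed the 24 h test as 1 of 12 other conjugating enzymes (13.7 ± 1.19 and 17.4 ± 2.65 CPM). Among 15 transporters, Abcc2, the pump for glucuronides into bile, was lower at night at 317 ± 30.6 CPM, against 400 ± 33.7 CPM by day (adjusted p = 0.0201), and Slc22a7, an organic anion carrier, was higher at 14.4 ± 5.79 CPM, against 7.54 ± 3.39 CPM by day (adjusted p = 0.00655). Among 9 genes listed as deconjugating, the 1 called was Por, which is the electron donor of cytochrome P450 and removes no conjugate. It was lower at night (306 ± 45.4 and 453 ± 49.99 CPM, adjusted p = 0.00495).

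Of 17 regulators of xenobiotic metabolism, 5 passed the 24 h test (Dbp, Hnf4a, Nr1i3, Ppara and Nr1h4, the last 2 named after their values were seen), against 12% of all genes. At an unadjusted p under 0.05, 10 of the 17 did (58.8%, against 31.5% of all genes). Nr1i3, the constitutive androstane receptor, had 233 ± 14.9 CPM at night and 425 ± 110 CPM by day, a log2 difference of -0.86 ± 0.15 (adjusted p = 0.0084). Its night libraries ran from 215 to 258 CPM, below every day library. Dbp averaged 81.5 ± 16.6 CPM at night and 111 ± 16.6 CPM by day, with a range of 1.79-fold. Ppara was also lower at night, at 137 ± 13.4 CPM, against 197 ± 43.3 CPM by day. Hnf4a had a range of 1.63-fold with a peak at ZT 11.8 but no night and day call (adjusted p = 0.482). The genes of the receptor AhR (Ahr, 24 h adjusted p = 0.691) and of the regulator NRF2 (Nfe2l2, 0.610) were not called. Of the PAR bZIP genes beside Dbp, Tef (24 h adjusted p = 0.115) and Hlf (0.0723) were not called either. Tef had 217 ± 11.2 CPM at night and 246 ± 13.7 CPM by day, and Hlf 44.8 ± 5.22 and 43.8 ± 5.64 CPM. Whether the enzymes follow these regulators was not tested.

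Promoter windows of 300 bases were found in RefSeq for 40 of the 44 genes and searched on both strands. The E-box CACGTG was in 0 of 40, against 7.15% of 32851 promoters in the table. The D-box TTATGTAA was in 1, Ugt2b1 (0.938% of all), and the variant TTACGTAA in 0 (0.119%). The antioxidant response element core was searched only as TGACNNNGC, which was in Gsta3 and Gstm5 (12.4% of all). Other forms of that element were not searched, in the pi genes or elsewhere. The STAT5 pair TTCNNNGAA was in Gsta1 and Ugt1a6a (8.3%). The AP-1 site, in Gstm5, Gstp1, Gstp2 and Ugt2b37 (5.2%), and the HNF1 half-site, in Sult1d1, Ugt1a1, Ugt1a10 and Ugt1a9 (0.399%), were chosen after the sequences were seen. No motif overlapped another in the windows shown. A match is a description of letters, not of binding.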

How the data were processed

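Liver RNA was rRNA-depleted and made into 12 strand-specific paired-end libraries, as the labels' protocols state. The table that the authors deposited holds raw counts of reads in exons, 1 whole number per gene and library. Per the submitters' processing notes, reads were aligned with STAR 2.4.0i and the genome was mm10. How reads were assigned to genes is not given in the sources used here, so overlapping genes and near copies are uncertain. Time and replicate came from the labels, giving 6 groups of 2; the labels do not say that replicates are separate animals, so p-values may reflect only technical spread. The 2 libraries of each time were more unlike than counting error allows (chi-square over degrees of freedom 12.8 to 74.8). Positions and exon lengths are from GENCODE on mm10, where 22054 gene identifiers matched, and promoters from RefSeq (GRCm38.p6).

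Tests used edgeR 4.0.16 under R 4.3.3: TMM scaling, a filterByExpr filter within time points (minimum count 10, total 15) and the quasi-likelihood functions glmQLFit and glmQLFTest. Cosine and sine terms with a 24 h period tested a rhythm; a fit of 6 time points tested night minus day and any difference. Adjusted p-values are Benjamini-Hochberg over 17142 genes, called under 0.05. Intervals of ranges and SEs of peak times are from least squares on log2 CPM (prior count 2, 9 residual degrees of freedom). CPM are counts over total times TMM factor, and per kb values are divided by union exon length. Shared windows are distinct 100-base windows of a gene's exons found in another gene's exons. The tests were checked on simulated data. Alternatives were RLE or no composition scaling, DESeq2 1.42.0, limma-voom (limma 3.58.1), no filter, a replicate block, other member thresholds and leaving out libraries.

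Genes and lists were chosen with earlier results of these data known. Named members are those called in any test, the 2 most abundant per kb of each family, and those whose counts track another row within 5%; of each pathway list, up to 3 called genes with the smallest adjusted p in the 24 h test.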

Additional observations from a re-analysis of the deposited data

Results flagged for a closer look

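In all, 4 of 80 groups of 6 libraries (named genes and family sums, night or day) held a library far from the others, by a gap of over 0.625 of the group's range; chance alone flags about 1 in 20 such groups. Sult1a1 reached 394 CPM in ZT02 replicate 1, against 302 CPM in the next highest day library. Sult5a1 reached 10.1 CPM in ZT18 replicate 2, against 6.37 CPM in the next highest night library. Ugt3a2 was at 357 CPM in ZT02 replicate 1, against 407 CPM in the next lowest day library. The sum of both Ugt3 genes was likewise lowest in ZT02 replicate 1, at 396 CPM, against 461 CPM in the next lowest day library.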

How the results depend on the processing

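Across 87 results of the 29 named members and 1827 alternatives, 1730 kept their side of the threshold, 52 lost a call and 45 gained one. With a call on either side, 0 changed direction. Results without a call could change sign, as the night minus day difference of Gsta4 did (log2 -0.09 to 0.13 over the alternatives). The calls of Sult1d1 in the 24 h test and at night, and of Ugt2b38 at night, held throughout. Counts of called members (4, 4 and 2 for rhythm, night minus day and any difference) became 15, 15 and 12 with DESeq2. Its added calls were mostly the Ugt1 rows in the first 2 tests. For any difference they included Ugt1a2 and Ugt1a5, and outside that locus Gsta2, Gstk1, Gstm6, Gstm7, Gstp2 and Gstz1. With DESeq2 the members, each Ugt1 row counted singly, had a larger share of calls than all genes in each test. Outside that locus the share was larger for night minus day and any difference, but not in the 24 h test. The count for any difference was 1 with limma-voom. Leaving out single libraries gave 2 to 14 in the 24 h test, highest without ZT10 replicate 1 and lowest without ZT06 replicate 2, ZT18 replicate 1 or ZT18 replicate 2. It gave 2 to 6 for night minus day, highest without ZT10 replicate 1 or ZT14 replicate 2, and 0 to 3 for any difference, with 0 without ZT18 replicate 1. Without ZT02 replicate 2 and ZT06 replicate 1 the counts were 1, 2 and 4; without ZT02 replicate 1 and ZT06 replicate 2, 2, 3 and 7; and without ZT02 replicate 1 and ZT06 replicate 1, an alternative chosen after seeing the data, 5, 4 and 1. The causes were not tested. Over all genes, DESeq2 called 3378, 2069 and 2524, against 2051, 1662 and 826; single libraries left out gave 1201 to 2225, 611 to 1818 and 174 to 896, and pairs 568 to 1693, 865 to 1743 and 598 to 679. Scaling by total counts alone split the night and day calls into 1077 higher and 624 lower, against 823 and 839, and moved the median log2 difference to 0.04. With the replicate block the counts stayed at 4, 4 and 2; deviations of like-numbered libraries correlated at -0.18 to 0.27 (median -0.009) and were not over 0.1 for every pair, so libraries were not treated as paired, although like numbers went together at ZT02 and ZT06. The night over day ratio of summed levels, without single libraries, ran from 0.929 to 1.03 for Gsta (0.972 with all), 0.932 to 0.996 for Gstk (0.966), 0.853 to 0.9999 for Gstm (0.904), 0.793 to 0.954 for Gstt (0.863), 0.931 to 1.004 for Gstz (0.974), 0.834 to 0.889 for Sult1 (0.849), 0.833 to 0.89 for all Sult (0.85) and 0.991 to 1.08 for all Gst (1.015). Without ZT06 replicate 1 and ZT02 replicate 2 it was 1.04 for Gsta, 1.02 for Gstk and 1.04 for Gstz. Without replicate 1 of both times it was 1.08 for Gsta, 1.02 for Gstk, 1.07 for Gstm, 1.055 for Gstt, 1.02 for Gstz, 0.923 for Sult1, 0.926 for all Sult and 1.13 for all Gst. Low counts limit Ugt2b37, Gstp2 and Ugt2b38, at 11, 67 and 35 counts in their lowest libraries.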
